A study of Mus musculus with 816 samples.

Results

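The cultures described here were 8 wells of primary mouse microglia that received tumour necrosis factor alpha (TNFa) together with interferon gamma (IFNg), without lipopolysaccharide (LPS), and were collected at 72 h. They were picked by their stimulus and time labels out of 816 samples in the series, and no measured value entered the choice. They were set against 25 cultures that received no stimulus and were collected at 72 h, and against 6 cultures that received IFNg alone for 72 h, which leaves the part added by TNFa. Cultures with TNFa alone (3) and with a low dose of LPS plus IFNg (LPS_lo + IFNg, 7), all at 72 h, served as further references. The microglia were bought as a commercial preparation from neonatal mouse brain. All 49 cultures carry 1 source ID in the header of the values, and what that ID stands for is not stated. Strain and number of animals were not given in the sources used here. Cells were grown on poly-lysine in multi-well plates for several days before the stimulus was added. The label of the mix gives 0.000004 µg/µl, the same number as for TNFa alone. IFNg alone carries 0.0001 µg/µl and LPS_lo + IFNg carries 0.00001 µg/µl. The dose of IFNg inside the mix is not given, so a difference between the mix and IFNg alone compares the mix as labelled with IFNg at its own labelled dose.

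IFNg binds a receptor whose JAK kinases activate transcription factors that bind GAS elements. These switch on the transcription factor IRF1, guanylate-binding proteins, immunity-related GTPases, the immunoproteasome and, through the coactivator CIITA, the MHC class II genes. TNFa signals through TNF receptors and TRAF adaptors to NF-kB, which drives chemokines, adhesion molecules and its own inhibitors, such as Nfkbia and Tnfaip3. Macrophages and microglia given both cytokines are a textbook case of inflammatory activation, with nitric oxide made by the inducible synthase Nos2.

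RNA from each well was read as a 3′-end library, and values are CPM, the reads of a gene for each M of mapped reads (M for mega). Depth, estimated from the step between low values, was 4.21 to 11.4 M reads in the mix, 1.29 to 6.28 M with IFNg alone, 1.98 to 2.36 M with TNFa alone, 2.58 to 10.4 M with LPS_lo + IFNg and 1.45 to 14.4 M in untreated cultures. Of the 8 mix cultures, 4 were on plate 2 and 4 on plate 4. Replicates 1 and 8 were in edge wells. IFNg alone had 3 cultures on plate 2, of which 1 was in an edge well, and 3 on plate 4, all in edge wells and all at 1.29 to 2.48 M reads. On plate 4 the well position therefore cannot be told apart from the stimulus in most wells. These 3 shallow IFNg cultures also held 2938 to 5252 CPM of Actb against 12430 to 23840 CPM in the mix, and 5958 to 11470 CPM of the predicted transcript Gm10800. On plate 4 the mix held 1561 to 1798 CPM of Gm10800 in middle wells and 6269 CPM in the edge well. Actb was at 3676 to 5663, 3961 to 5385 and 4907 to 9868 CPM in untreated edge wells of plates 1, 3 and 4. Because of these differences by plate and well, plate 2 values are given beside the results. On plate 2 the mix and IFNg alone were sequenced in different library pools, with untreated cultures in both. Untreated culture 10, in which interferon-stimulated genes such as Ifit3 (1538 CPM) were high, and untreated culture 14, with 618 CPM of Csf1r, stood apart from the other untreated cultures; without them the mix differed from untreated in 1280 genes, against 1228 with them, and from IFNg alone in 226, against 220. Samples are separate wells, so p-values measure the spread between wells, which may be technical.

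The label microglia held for general markers and not for those of the resting state. Csf1r, the receptor that microglia need for survival, was at 1600 to 3753 CPM in the mix and the summed microglia markers at 2140 to 4850 CPM, against 975 to 7200 CPM in untreated cultures. The markers of resting microglia in brain, P2ry12 (0 to 1.3 CPM in the mix, 0 to 7.93 CPM in untreated) and Tmem119 (1.19 to 33.9 and 0.0941 to 42.8 CPM), were low in both groups. The astrocyte marker Gfap, the endothelial marker Cdh5 and the neutrophil marker S100a9 were listed at 0 in every mix culture. Summed markers reached 34.3 CPM for astrocytes, 8.52 for neurons, 48.9 for endothelial cells, 17.1 for fibroblasts and pericytes, 33.5 for monocytes and dendritic cells, 8.43 for T and NK cells, 6.9 for B cells and 91.4 for oligodendrocytes and precursors. The neutrophil list, through S100a8, was at 2.90 to 19.4 CPM in the mix and 0 to 4.85 CPM with IFNg alone. The perivascular macrophage list was at 0 to 3.88 CPM in the mix, 0 to 41.7 CPM with IFNg alone and 5.49 to 253 CPM in untreated cultures. Its 2 tested members, Mrc1 and Cbr2, were both called lower than untreated, where 5.99% of all genes were lower. In these bulk wells, fewer cells of a type and less RNA per cell cannot be told apart.

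Promoters of a few of the genes that rose with the mix are printed because they hold the letters of the elements named above. The 250 bases before the annotated start (RefSeq, GRCm38.p6) were searched on both strands for NF-kB (GGGA, any base, then TTTCC), GAS (TTCNNNGAA) and ISRE (GAAA, any 2 bases, then GAAA, the element bound by interferon regulatory factors). Gbp5, which encodes a guanylate-binding protein that promotes inflammasome assembly, was the only gene higher in the mix than with IFNg alone whose window held an NF-kB match and a GAS or ISRE match. Its window, at chr3:142496684-142496933 on the plus strand, holds GAS matches 245 to 237 and 52 to 44 bases before the start, an ISRE match 165 to 156 and an NF-kB match 77 to 68 bases before it. The other genes of that set with an NF-kB match, Nfkbia (the NF-kB inhibitor IκBα, chr12:55492648-55492897, minus strand) and Ppt2 (a lysosomal thioesterase, chr17:34627436-34627685, minus strand), were chosen for printing after the matches were seen; their matches lie 29 to 20 and 67 to 58 bases before the start. The sequences read 5′ to 3′ on the gene's strand, and capitals mark the matches:
Gbp5: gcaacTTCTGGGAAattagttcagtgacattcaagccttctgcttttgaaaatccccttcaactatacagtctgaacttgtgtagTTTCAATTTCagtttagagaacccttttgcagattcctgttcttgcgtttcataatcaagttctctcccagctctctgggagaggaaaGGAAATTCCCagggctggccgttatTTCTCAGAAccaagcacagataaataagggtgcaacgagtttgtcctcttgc
Nfkbia: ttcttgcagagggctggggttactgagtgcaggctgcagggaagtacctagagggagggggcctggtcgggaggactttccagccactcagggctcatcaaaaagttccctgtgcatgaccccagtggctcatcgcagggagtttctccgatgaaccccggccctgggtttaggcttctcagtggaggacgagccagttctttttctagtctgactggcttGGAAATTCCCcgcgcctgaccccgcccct
Ppt2: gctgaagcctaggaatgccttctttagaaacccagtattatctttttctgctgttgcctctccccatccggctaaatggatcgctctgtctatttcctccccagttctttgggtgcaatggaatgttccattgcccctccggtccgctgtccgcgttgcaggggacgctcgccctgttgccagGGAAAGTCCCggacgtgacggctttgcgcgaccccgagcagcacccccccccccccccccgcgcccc

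Among all 7717 tested genes with a promoter entry (of 10654), 0.441% held the NF-kB letters, 6.96% GAS and 3.49% ISRE. Of the 136 genes with an entry that were higher in the mix than with IFNg alone, 3 (2.21%) held NF-kB, 11 (8.09%) GAS and 9 (6.62%) ISRE. Of the 427 higher in the mix than in untreated cultures, 6 (1.41%) held NF-kB, 52 (12.2%) GAS and 52 (12.2%) ISRE. Among the 465 lower than in untreated cultures the shares were 0.43%, 6.02% and 2.8%. These are letter matches described by their shares, with no test.

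Relative to untreated cultures, the mix raised the IFNg programme together with chemokines and Nos2, and lowered Mrc1, Spp1, Trf and Apoe among others. Of 10654 genes tested, 1228 (11.5%) passed an adjusted p of 0.05 with an absolute log2 difference of at least 1, with 590 higher (5.54%) and 638 lower (5.99%). These shares over all genes are the background for the counts of list genes against untreated below. The lists were chosen with earlier results of these data known, so the list counts are descriptions and not tests. Log2 differences are means of log2(CPM + 1), tested with limma, and understate the change of genes near 0. The median over all genes was −0.14. Within plate 2 alone 2151 genes (20.2%) were called, 691 higher (6.49%) and 1460 lower (13.7%). IFNg alone, set against the same untreated cultures, had 326 genes higher (3.06%) and 804 lower (7.55%). The 12 named rises, taken by size among genes whose groups did not overlap, were Cxcl9, Gbp2, Cxcl10, Serpina3g, Slamf8, Ly6a, Gbp5, Iigp1, Nos2, Fpr2, Timd4 and Tgtp2, with log2 differences from 9.41 down to 6.95.

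The chemokine Cxcl9, a T cell attractant that is a classical IFNg target, ran from 404 to 2201 CPM (median 1759) in the mix. With IFNg alone it ran from 0.807 to 558 CPM (median 115), and in untreated cultures from 0 to 15.3 CPM. The mix was above untreated by 9.41 (SE 0.65, adjusted p = 1.34e-15). Every mix culture but replicate 8, an edge well, was at 1582 CPM or more, and 7 of the 8 were above the highest IFNg culture. Its relative Cxcl10 was at 228 to 961 CPM (median 638) in the mix, 6.86 to 322 CPM with IFNg alone and 0 to 28.1 CPM in untreated cultures.

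Over all cultures, guanylate-binding proteins and immunity-related GTPases, which attack the membranes of intracellular parasites and bacteria, rose without exception. Of tested members, 10 of 10 and 12 of 12 were higher than untreated, with list medians of 4.74 and 4.29. On plate 2, 10 of 10 and 10 of 12 were higher, with list medians of 4.36 and 3.74. Gbp2 was at 7019 to 10110 CPM (median 8422) in the mix, 10074 to 12982 CPM with IFNg alone and 0.797 to 181 CPM in untreated cultures. Against untreated it rose by 8.25 (SE 0.55, adjusted p = 4.5e-16). Gbp2 was therefore far above untreated in every mix culture, while the highest mix culture (10110 CPM) was just above the lowest IFNg culture (10074 CPM). Iigp1 ran from 435 to 905 CPM in the mix, 778 to 977 CPM with IFNg alone and 0 to 19.7 CPM in untreated cultures. Against IFNg alone the list medians were −0.22 and −0.33; no immunity-related GTPase was called, and among guanylate-binding proteins Gbp5 was higher and Gbp11 lower. Members of both families, and pairs such as Tgtp1 and Tgtp2, are near-identical in part, so reads may have been split between them.

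In the signalling layer the same split was seen. Of 17 tested genes of the IFNg receptor and JAK-STAT path, 10 were higher than untreated, among them Jak2, Irf1, Irf8, Socs1, Socs3, Ptpn6 and Batf2, and 0 lower, and none was called between the mix and IFNg alone. Irf1 was at 485 to 611 CPM (median 513) in the mix, 439 to 574 CPM (median 535) with IFNg alone and 5.91 to 53.1 CPM in untreated cultures. It rose by 4.71 (SE 0.26, adjusted p = 2.34e-18) against untreated, with a difference of 0.00 (SE 0.35) from IFNg alone. The mix and the IFNg cultures overlapped almost wholly for this gene. Irf8, a transcription factor of the myeloid lineage, was at 808 to 1620 CPM and Socs1, the feedback inhibitor of JAK kinases, at 241 to 882 CPM in the mix. Their differences from IFNg alone were 0.16 (SE 0.28) and 1.27 (SE 0.74), neither called. The receptor genes Ifngr1 (−0.34), Ifngr2 (0.78), Tnfrsf1a (0.45) and Tnfrsf1b (−0.10) were not called against untreated. Ciita and Il6 did not pass the filter on low values.

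**Figure D1:**
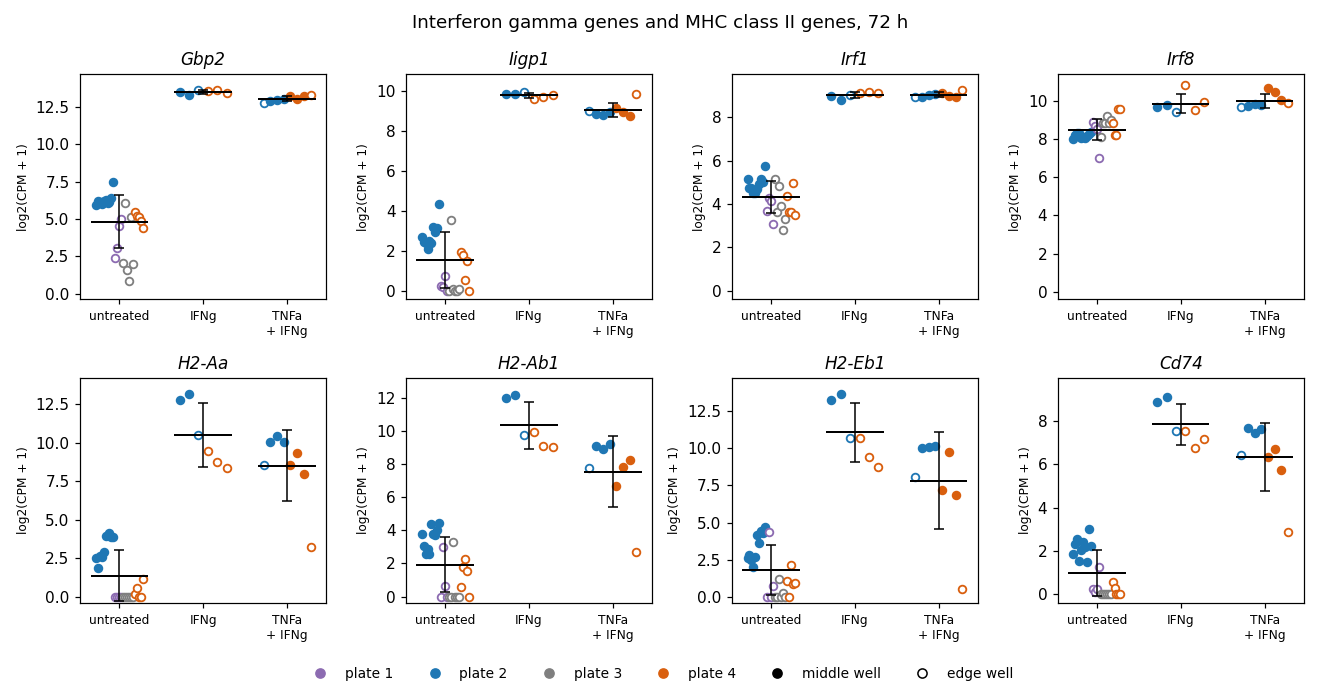
CPM on a log2(CPM + 1) scale of 8 IFNg-responsive genes in untreated cultures (25), IFNg alone (6) and TNFa + IFNg (8). Each point is a culture, coloured by plate, filled for middle and open for edge wells, and the bar shows mean ± SD on that scale. Gbp2, Iigp1, Irf1 and Irf8 sit at similar heights in both IFNg groups, while H2-Aa, H2-Ab1, H2-Eb1 and Cd74 spread widely and lie lower in many mix cultures than in the IFNg cultures of plate 2.

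Antigen presentation by MHC class I was raised broadly. Of 20 tested class I and immunoproteasome genes, 18 were higher than untreated (list median 2.69), and none was called against IFNg alone. B2m, the class I light chain, ran from 5057 to 7536 CPM in the mix and from 865 to 4073 CPM in untreated cultures, a rise of 1.78 (SE 0.19, adjusted p = 1.06e-09). The immunoproteasome subunit Psmb8 rose by 3.12 (SE 0.20, adjusted p = 2.49e-16), from 43.4 to 175 CPM in untreated cultures to 613 to 1466 CPM in the mix. Tapbp, the peptide-loading factor tapasin, was at 3140 to 7937 CPM in the mix and 1926 to 2859 CPM with IFNg alone. The 2 groups did not overlap for Tapbp, with a difference of 1.02 (SE 0.30) that missed the threshold (adjusted p = 0.0591) and was 0.69 (adjusted p = 0.00909) on plate 2.

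MHC class II, which presents peptides to CD4 T cells, was raised against untreated in 5 of 8 tested genes (list median 5.04) and in 7 on plate 2. H2-Aa rose by 7.14 (SE 0.71, adjusted p = 7.67e-11), H2-Eb1 by 6.0 (SE 0.80, adjusted p = 1.18e-07), H2-Ab1 by 5.62 (SE 0.66, adjusted p = 6.3e-09) and Cd74, the invariant chain, by 5.36 (SE 0.48, adjusted p = 3.31e-12). H2-DMa, which loads class II peptides, rose by 4.71. These were among the most variable genes of the mix. H2-Eb1 ran from 0.432 to 1106 CPM (median 561) in the mix and from 424 to 12663 CPM (median 1644) with IFNg alone. On plate 2 it was at 262, 1028, 1068 and 1106 CPM in the mix and at 9635, 12660 and 1642 CPM with IFNg alone. The mix therefore lay below IFNg alone in every culture of plate 2, the edge well being lowest in each group, and replicate 8, the edge well of plate 4, held the lowest value of the mix.

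Over both plates no class II gene was called between the mix and IFNg alone: H2-Aa differed by −1.99 (adjusted p = 0.32), H2-Ab1 by −2.78 (0.0879), H2-Eb1 by −3.24 (0.105) and Cd74 by −1.49 (0.247). Within plate 2, H2-Aa (−2.39, adjusted p = 0.0154), H2-Ab1 (−2.58, 0.00361) and H2-Eb1 (−2.96, 0.00921) were called lower in the mix, as 3 of 8 class II genes. With plate and well position in the model, all 3 were called lower, and so was Cd74 (−2.04, adjusted p = 0.000927), for which the plate 2 value was −1.23 (0.0639). In that fit 78 of all 10654 genes were lower. The lower class II level in the mix thus depends on how plate and well enter the fit, while its direction was the same in each of these for the 4 genes. H2-DMa differed by 0.74 over both plates and by −1.0 on plate 2, neither called.

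Against IFNg alone, 220 of 10654 genes (2.06%) were called, 167 higher (1.57%) and 53 lower (0.497%), around a median over all genes of 0.17. The shares are likewise the background for counts of list genes against IFNg alone. Of the 220, 66 had groups that did not overlap, 46 of them higher. Over all 10654 tested genes, 102 reached the smallest p of the exact rank-sum test (0.000666), which full separation of the groups gives. After quantile normalization, which moved the median to −0.03, 148 were higher and 79 lower, or 65.2% higher in place of 75.9%. Within plate 2, 477 genes (4.48%) were called, of which 243 (2.28%) were higher and 234 (2.20%) lower around a median of −0.03, so the excess of rises is not seen there. Of the 220 calls, 128 were also called on plate 2 and 215 had the same sign there.

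**Figure D2:**
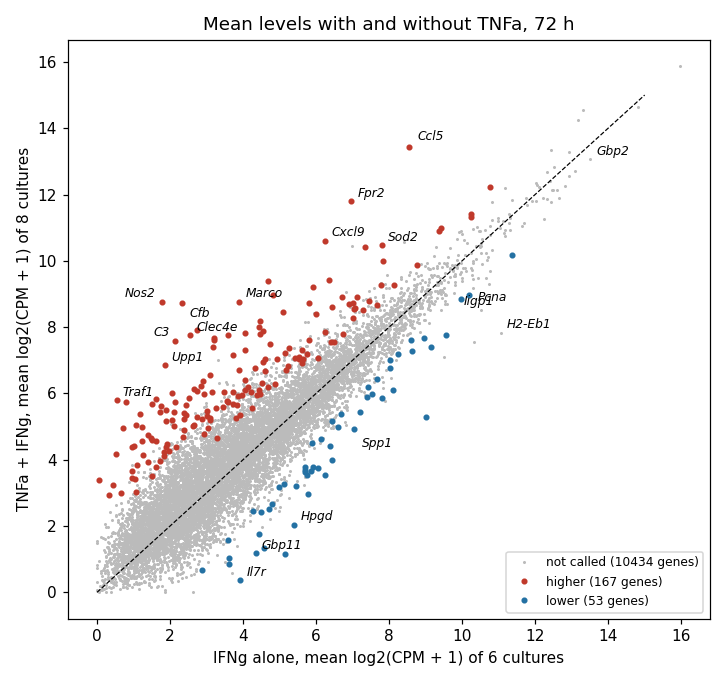
Mean log2(CPM + 1) of each of 10654 tested genes with IFNg alone (x axis) against TNFa + IFNg (y axis), with the dashed line marking equal means. The 167 genes called higher are red, the 53 called lower are blue and the rest are grey; Nos2, Cfb and C3 lie far above the line.

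The 12 largest rises against IFNg alone among genes whose groups did not overlap were Nos2, Cfb, C3, Traf1, Clec4e, Upp1, Ccl5, Marco, Fpr2, Ubd, Gpr84 and Fpr1, with log2 differences from 6.98 down to 4.18. The absence of overlap was a condition for being named, so it is no separate result for these genes. Each gene was also called on plate 2. Together they cover nitric oxide production, the alternative complement pathway, a TRAF adaptor, pattern and formyl-peptide receptors, and a chemokine.

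Nos2 carried the largest difference. It was at 292, 1572, 1549 and 1645 CPM on plate 2 and at 323, 131, 276 and 87.1 CPM on plate 4 in the mix. With IFNg alone it was at 6.0, 15.2 and 9.08 CPM on plate 2 and at 0.404, 0 and 0 CPM on plate 4. Untreated cultures of plate 2 held 7.77 to 13.8 CPM, so IFNg alone was at the untreated level of that plate. The lowest mix culture was above the highest IFNg culture, as the naming rule required. Nos2 differed by 6.98 (SE 0.88, adjusted p = 7.09e-07) from IFNg alone, by 6.64 on plate 2 and by 7.31 (adjusted p = 5.97e-12) from untreated. TNFa alone was listed at 0 in all 3 cultures.

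Complement genes followed. Cfb, the factor B protease of the alternative pathway, was at 1058, 1057, 864 and 920 CPM on plate 2 and 270, 273, 298 and 49.5 CPM on plate 4 in the mix, against 0 to 30.3 CPM (median 5.78) with IFNg alone. It differed by 6.39 (SE 0.82, adjusted p = 7.27e-07) and by 5.58 on plate 2. C3, the central component, ran from 80.8 to 292 CPM (median 200) in the mix and from 0 to 33.5 CPM (median 3.91) with IFNg alone, a difference of 5.43 (SE 0.69, adjusted p = 7.27e-07). Both genes separated the groups in every culture, as the naming rule required. The IFNg cultures of plate 2 held more of both than those of plate 4. Of the 20 tested complement and Fc receptor genes, 6 were higher than with IFNg alone (C1ra, C3, Cfb, Cfp, Itgam and Fcgr2b) and Fcgr3 was lower. On plate 2, 7 were higher and 4 lower (list median 0.23), where 2.28% of all genes were higher and 2.20% lower. Cfp, which encodes properdin, the stabiliser of the alternative convertase, differed by 2.16 (adjusted p = 0.000444). Fcgr2b, the inhibitory Fc receptor, was at 28.5 to 216 CPM in the mix, 0 to 108 CPM with IFNg alone and 91.5 to 582 CPM in untreated cultures. It was thus higher than with IFNg alone (2.82, adjusted p = 0.00522) and below untreated (−1.46, adjusted p = 0.0267). Itgam, a subunit of complement receptor 3, was at 99.7 to 185 CPM in the mix and 57.8 to 186 CPM in untreated cultures (0.12, adjusted p = 0.773), and was 1.39 above IFNg alone (adjusted p = 0.000915).

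**Figure D3:**
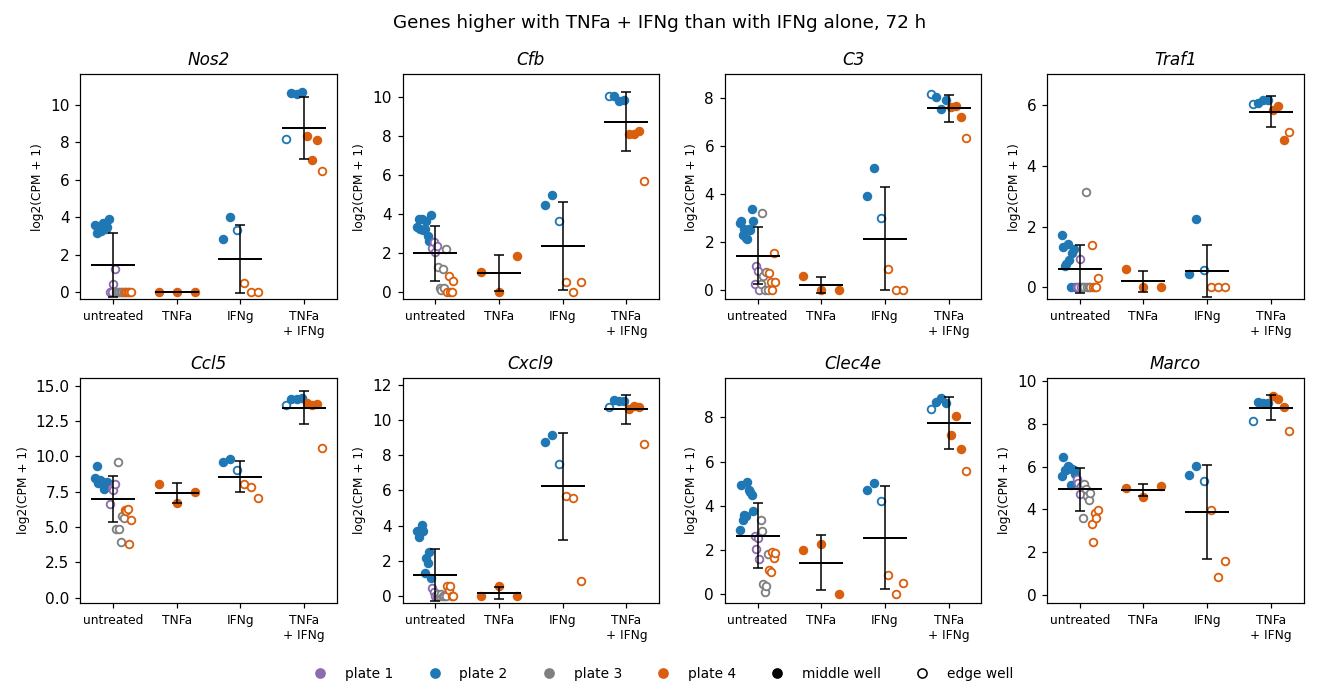
CPM on a log2(CPM + 1) scale of 8 genes higher with TNFa + IFNg than with IFNg alone, in untreated cultures (25), TNFa alone (3), IFNg alone (6) and the mix (8). Points are cultures, coloured by plate, filled for middle and open for edge wells, and bars show mean ± SD on that scale. For Nos2, Cfb, C3, Traf1, Ccl5, Clec4e and Marco all mix points lie above all points of IFNg alone, a condition of their naming. For Cxcl9 replicate 8 of the mix falls within the IFNg range.

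Of the NF-kB subunits and feedback genes, 10 of 16 were higher than untreated (list median 1.74) and 5 were higher than with IFNg alone (list median 0.93): Nfkbia, Nfkbie, Bcl3, Tnfaip3 and Tnip3. Nfkbia was at 273 to 483 CPM (median 443) in the mix and 52.6 to 194 CPM (median 150) with IFNg alone. Tnfaip3, the ubiquitin editor A20, was at 86.9 to 198 CPM against 0 to 37.2 CPM. Their differences were 1.81 (SE 0.31, adjusted p = 0.00027) and 3.41 (SE 0.60, adjusted p = 0.000314), with 1.28 and 2.20 on plate 2. Nfkb1 itself, the p105 and p50 subunit, was not called (0.55 against IFNg alone, 0.07 against untreated). Nfkbia and Tnfaip3 thus did not overlap between the groups, while Bcl3 (mix from 14.5 CPM, IFNg alone up to 21 CPM) did. Bcl3 (1.45, adjusted p = 0.0466) and Nfkbie (2.91, adjusted p = 0.012) lost their call without single cultures.

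Of 24 genes of TNF receptors and proximal signalling, 5 were higher than untreated (Tnf, Traf1, Birc3, Cflar and Ikbke) and Traf1 and Ikbke were higher than with IFNg alone. Traf1, an adaptor at TNF receptor 2, was at 28.1 to 71.9 CPM (median 63.7) in the mix, 0 to 3.72 CPM with IFNg alone and 0 to 7.82 CPM in untreated cultures. The difference from IFNg alone was 5.25 (SE 0.47, adjusted p = 1.79e-10), and it was 5.05 on plate 2. Ikbke (3.04, adjusted p = 0.032) was 0.80 and not called on plate 2. Tnf mRNA was at 499 to 674 CPM (median 574) in the mix, 84.7 to 525.98 CPM (median 337) with IFNg alone and 0.209 to 123 CPM in untreated cultures. It rose by 4.17 (adjusted p = 3.71e-08) against untreated and differed by 1.18 (SE 0.70, adjusted p = 0.459) from IFNg alone, or 0.24 on plate 2. Irak3, a brake on Toll-like receptor signalling, was 3.19 above IFNg alone (adjusted p = 0.00325) and 1.59 on plate 2.

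Among 14 tested chemokines, 6 were higher than untreated (on plate 2, 6 higher and 3 lower) and 4 higher than with IFNg alone: Cxcl9, Cxcl10, Cxcl11 and Ccl5. Ccl5, which attracts T cells and monocytes, was at 12850, 17170, 17070 and 17540 CPM on plate 2 and at 14080, 12390, 13350 and 1559 CPM on plate 4. With IFNg alone it was at 130 to 908 CPM (median 395) and in untreated cultures at 12.7 to 753 CPM (median 200). Even replicate 8, far below the other mix cultures, was above all IFNg cultures. Ccl5 differed by 4.89 (SE 0.73, adjusted p = 2.15e-05) from IFNg alone and by 6.46 (adjusted p = 9.6e-13) from untreated. Cxcl9 differed from IFNg alone by 4.36 (SE 0.86, adjusted p = 0.00154), or 2.55 on plate 2. Cxcl10 differed by 3.29 (SE 0.75, adjusted p = 0.00766), or 1.84 on plate 2, and missed the threshold at 2.7 (adjusted p = 0.051) without IFNg replicate 6.

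Of 14 genes of nitric oxide, itaconate, arginine and tryptophan metabolism and of oxidants and prostaglandins, 9 were higher than untreated and 6 higher than with IFNg alone: Nos2, Ass1, Ptgs2, Ptges, Sod2 and Cybb. Ptges, the prostaglandin E synthase, was at 416, 284, 305 and 322 CPM on plate 2 and 236, 200, 118 and 8.43 CPM on plate 4 in the mix, against 3.09 to 19.4 CPM with IFNg alone. Its difference was 4.22 (SE 0.70, adjusted p = 0.000114), and 5.06 on plate 2, with replicate 8 inside the IFNg range. Sod2, the mitochondrial superoxide dismutase, was at 834 to 1748 CPM (median 1541) against 168 to 279 CPM (median 246), a difference of 2.66 (SE 0.27, adjusted p = 2.9e-09). Sod2 did not overlap between the groups, and its plate 2 value of 2.71 was close to that over both plates. Ass1, which recycles citrulline into arginine, was 2.57 higher (adjusted p = 0.00276) and the cyclooxygenase Ptgs2 3.37 higher (adjusted p = 9.16e-06). Irg1, the itaconate synthase, was raised against untreated by 6.06 (adjusted p = 5.33e-16) and differed by 0.80 (adjusted p = 0.532) from IFNg alone.

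The other named rises were surface receptors and a few enzymes. Clec4e, the C-type lectin Mincle, was at 47.1 to 470 CPM (median 299) in the mix, 0 to 31.5 CPM with IFNg alone and 0.0797 to 32.6 CPM in untreated cultures. Marco, a scavenger receptor, was at 201 to 642 CPM (median 509) against 0.773 to 64.4 CPM (median 26.9) and 4.45 to 86 CPM (median 33.9). With IFNg alone both receptors overlapped the untreated range, and in every mix culture both were above it. They differed from IFNg alone by 5.20 (SE 0.82, adjusted p = 5.55e-05) and 4.87 (SE 0.61, adjusted p = 6.85e-07), and on plate 2 by 3.99 and 3.13.

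The formyl-peptide receptors Fpr2 (2014 to 6394 CPM against 13.9 to 388) and Fpr1 (144 to 386 against 0.403 to 48.4), which sense bacterial and mitochondrial peptides, differed by 4.83 and 4.18. On plate 2 they differed by 3.96 and 2.41. Gpr84, a receptor for medium-chain fatty acids, was at 16.1 to 73.6 CPM against 0 to 8.87 CPM. Upp1, uridine phosphorylase, was at 51.5 to 171 CPM against 0 to 13.8 CPM, and Ubd, the ubiquitin-like modifier FAT10, at 7.13 to 76.7 CPM against 0 to 2.82 CPM. For these 5 genes the groups were apart in all cultures, as the naming rule required. Tlr2, a sensor of bacterial lipoproteins, was at 82.6 to 146 CPM against 20.54 to 27.1 CPM, a difference of 2.07 (adjusted p = 0.0257).

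Some of the largest rises against untreated were weaker as additions to IFNg. Serpina3g, a serine protease inhibitor, was 7.96 above untreated and 3.37 above IFNg alone (adjusted p = 0.00932), but 1.0 and not called on plate 2 (adjusted p = 0.302). Slamf8 likewise was 7.62 above untreated, 2.40 above IFNg alone (adjusted p = 0.0368) and 0.78 on plate 2 (adjusted p = 0.4). Gbp5, whose promoter is printed above, was at 222 to 675 CPM against 10.8 to 146 CPM with IFNg alone. It differed by 2.93 (adjusted p = 0.012), with 1.88 on plate 2 (adjusted p = 0.0642). For these 3 genes the call against IFNg alone was not made within plate 2. Timd4, a phosphatidylserine receptor, kept its call there, with 5.16 over both plates and 3.90 on plate 2 (adjusted p = 0.00561).

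Of 11 costimulation and adhesion genes, 9 were higher than untreated (list median 3.22) and Cd1d1, the lipid-presenting molecule, was also higher than with IFNg alone, at 17.7 to 125 CPM against 0 to 21.7 CPM (2.88, adjusted p = 0.00325). On plate 2, 5 of the 11 were higher, among them Icam1 (1.35, adjusted p = 4.37e-05) and Cd40 (1.91, adjusted p = 0.0089). The inhibitory ligand Cd274 was 4.76 above untreated and 0.16 from IFNg alone, or 0.00 on plate 2. Of 13 cytokines, 6 were higher than untreated and none was called against IFNg alone, on plate 2 either. Il1b was at 2.16 to 53.8 CPM in the mix and 0.403 to 108 CPM with IFNg alone. Of 23 genes of the type I interferon response, 17 were higher than untreated (list median 2.48), and Oas1g and Oasl1 were higher than with IFNg alone, with Oasl1 not called on plate 2 (0.84). The study's hub genes Ifit3 (−0.75) and Naaa (1.44) were not called against IFNg alone.

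Of 21 cell death and inflammasome genes, 11 were higher and 2 lower than untreated. Against IFNg alone the survival gene Bcl2a1a was higher (3.60, adjusted p = 0.000258) and Bcl2l11, the death promoter Bim, was lower (−2.30, adjusted p = 0.00325). Bcl2l11 was at 0.475 to 93.8 CPM (median 18) against 44.1 to 92.8 CPM (median 66.9). Bcl2a1a belongs to a family of near-identical copies, and the other copies listed did not rise with it. Bcl2a1b was at 131 to 229 CPM in the mix and 153 to 360 CPM with IFNg alone, and was called lower than untreated. Bcl2a1d was at 0 to 33.5 CPM against 0 to 71.5 CPM. Neither was called against IFNg alone. Of 18 glycolysis genes, 7 were higher than untreated (14 on plate 2) and Aldoa, Eno1 and Gpi1 higher than with IFNg alone. Without single cultures Gpi1 (1.15) lost its call in 4 cases, namely TNFa + IFNg replicate 4 and IFNg replicates 4, 5 and 6 (adjusted p up to 0.0972), and Eno1 (1.33) in 7 (adjusted p up to 0.0948). Aldoa was at 1626 to 3320 CPM against 985 to 1686 CPM, a difference of 1.08 (SE 0.20, adjusted p = 0.000892), and 1.29 on plate 2. On plate 2, 6 of the 18 glycolysis genes were higher. Of 21 genes of cholesterol synthesis and uptake, 2 were higher and 2 lower than untreated over all cultures (list median −0.70, with 18 below 0). The shares over all genes were 5.54% and 5.99%. On plate 2, where 6.49% of all genes were higher and 13.7% lower, 1 was higher and 11 were lower (list median −1.12). With plate and well position 1 was higher and 5 were lower, where 594 of all 10654 genes were higher and 754 lower. None was called against IFNg alone over all cultures, and 2 were higher on plate 2.

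**Figure D4:**
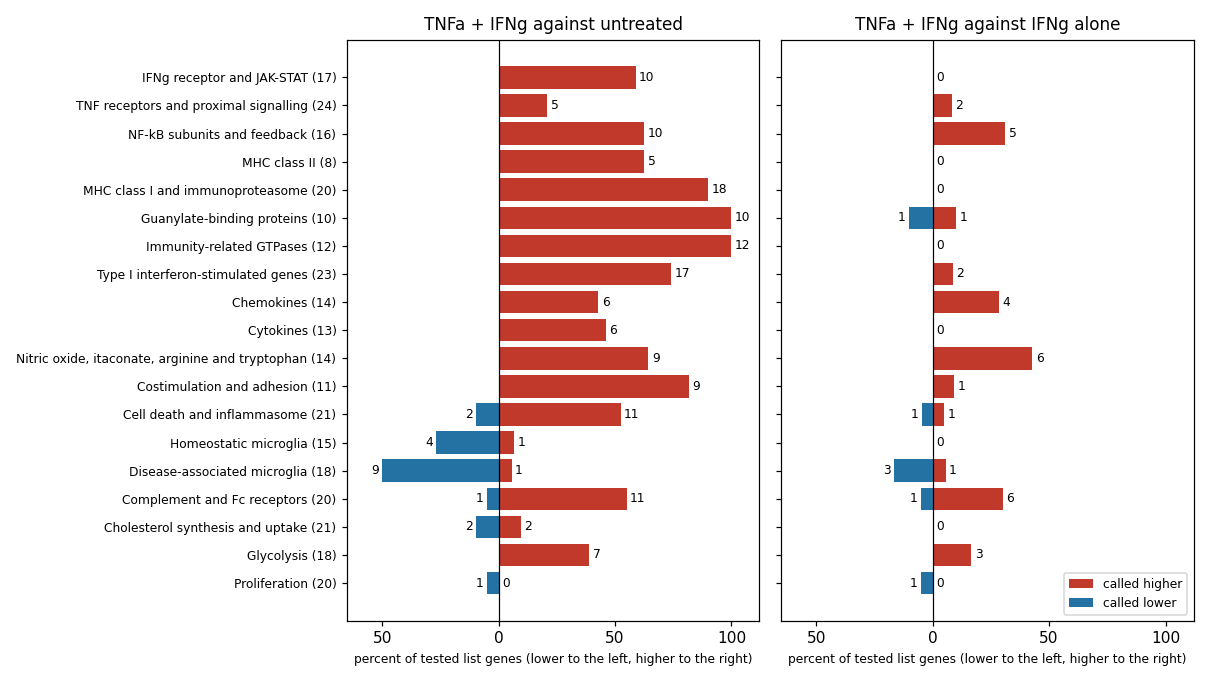
Percent of the tested genes of each list called, over all cultures, higher (to the right) or lower (to the left) in TNFa + IFNg against untreated cultures and against IFNg alone, with the number of genes called printed at each bar. All 10 guanylate-binding proteins and all 12 immunity-related GTPases were higher than untreated, whereas the largest shares of rises against IFNg alone belong to the lists of nitric oxide metabolism (6 of 14), NF-kB (5 of 16) and complement (6 of 20).

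The named falls against untreated, again genes without overlap, were Mrc1, S1pr1, Atp6v0d2, Spp1, Trf, Sox4, St6gal1 and Gas6, from −4.81 to −3.92. Mrc1 encodes the mannose receptor of alternatively activated macrophages and is also in the perivascular macrophage list. It was at 0 to 2.91 CPM in the mix, 0 to 40.3 CPM with IFNg alone and 5.49 to 236 CPM in untreated cultures. It fell by 4.81 (SE 0.61, adjusted p = 3.9e-08). On plate 2 it was at 1.28 to 2.91 CPM in the mix and 5.73, 28.6 and 40.3 CPM with IFNg alone (−2.57, adjusted p = 0.000266), while over both plates that difference was not called (−1.86). Mrc1 was in this way near 0 in all mix cultures. S1pr1, the sphingosine phosphate receptor (0 to 15.6 CPM against 54.7 to 154), and Atp6v0d2, a proton pump subunit (0 to 14.8 against 17.6 to 135), were also lower than untreated, and their differences from IFNg alone, −0.49 and −0.54, were not called.

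Spp1, Trf and Gas6 fell further in the mix than with IFNg alone. Spp1, or osteopontin, was at 20.7 to 71.5 CPM (median 26.7) in the mix, 51.4 to 357 CPM (median 133) with IFNg alone and 363 to 1038 CPM (median 513) in untreated cultures. It fell by 4.24 (SE 0.26, adjusted p = 4.66e-17) from untreated, and the step from IFNg alone was −2.11 (SE 0.35, adjusted p = 0.000108), or −1.03 on plate 2. Trf, the iron carrier transferrin, was at 6.33 to 33.7, 53 to 122 and 277 to 788 CPM in the same order, and its step from IFNg alone was −1.98 (SE 0.28, adjusted p = 7.55e-06), or −1.09 on plate 2. The 3 conditions did not overlap for Trf. Gas6, a ligand of the TAM receptors that clear dying cells, was at 39.4 to 124, 119 to 235 and 577 to 2297 CPM, with a step of −1.25 (adjusted p = 0.0115), or −0.91 on plate 2, where it is under the fold used for a call.

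Disease-associated microglia genes, a set described in neurodegeneration, were mostly lower: 9 of 18 were lower and 1 higher than untreated (list median −1.08). Apoe fell by 3.00 (SE 0.29, adjusted p = 2.87e-11), from 14925 to 56911 CPM to 2181 to 6926 CPM, and Gpnmb by 2.74 (adjusted p = 2.32e-16). Against IFNg alone, Trem2 (−1.30, adjusted p = 5.74e-05), Spp1 and Lgals3 (−1.21, adjusted p = 6.99e-05) were lower and Cst7, an inhibitor of lysosomal proteases, was higher. Cst7 was at 0 to 65.5 CPM (median 30.3) against 0 to 3.63 CPM, a difference of 3.43 (adjusted p = 0.000142), with replicate 8 at 0. Members of the list thus moved in opposite directions. Of 15 homeostatic genes over all cultures, 4 were lower and 1 higher than untreated and none was called against IFNg alone. Fcrls, a scavenger-like receptor of microglia, fell by 3.15 (adjusted p = 8.3e-05), from 8.56 to 716 CPM in untreated cultures to 3.24 to 173 CPM in the mix. Of 15 homeostatic genes on plate 2, 9 were lower than untreated, where 13.7% of all genes were lower. Against IFNg alone 2 were higher and 2 lower there, where 2.28% and 2.20% of all genes were. Proliferation genes depended on the plate. Over all cultures 1 of 20 was lower than untreated (list median −0.36). On plate 2 all 20 were lower (list median −2.77, where 13.7% of all genes were lower). With plate and well position in the model 7 were lower, where 754 of all 10654 genes were lower. The gene called over all cultures was Pcna, lower than untreated (−1.13) and lower than with IFNg alone (−1.22, adjusted p = 0.00115). Pcna was at 325 to 882 CPM against 880 to 2012 CPM.

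The named falls against IFNg alone, again genes without overlap, were Il7r, Hpgd, Gbp11, Gadd45g, Tmem37, Ankle2, Rb1cc1 and Hist1h1c, from −3.55 to −2.02. Hpgd, which degrades prostaglandins, was at 0.186 to 13.9 CPM (median 4.52) in the mix, 26.2 to 69.6 CPM (median 42.6) with IFNg alone and 4.13 to 309 CPM (median 124) in untreated cultures. Its step from IFNg alone was −3.36 (SE 0.61, adjusted p = 0.000444), and −3.74 on plate 2. Prostaglandin genes therefore split, with Ptgs2 and Ptges higher and Hpgd lower. Il7r was at 0 to 1.05 CPM against 2.42 to 72.7 CPM (−3.55, adjusted p = 0.00155). Gbp11 was at 0 to 3.08 CPM against 8.12 to 51.5 CPM (−3.17, adjusted p = 1.85e-07), and was at 0 to 0.24 CPM in untreated cultures, so every IFNg culture was above every untreated and every mix culture. Gadd45g, induced by growth arrest and DNA damage, was at 0.744 to 23.5 CPM against 47.7 to 183 CPM (−2.7). Ankle2 (−2.14, adjusted p = 0.0342) was −0.85 and not called on plate 2.

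A further mix with IFNg was LPS_lo + IFNg, in which a Toll-like receptor 4 ligand takes the place of TNFa. Of 8676 genes tested, 65 (0.749%) differed, 29 higher with TNFa + IFNg (0.334%) and 36 lower (0.415%), around a median of −0.01. On plate 2, 295 (3.40%) differed, 174 higher (2.01%) and 121 lower (1.39%). There all TNFa + IFNg cultures were in pool 3 and all LPS_lo + IFNg cultures in pool 4, so pool and stimulus cannot be told apart. On plate 4, 1 gene was called between 4 TNFa + IFNg and 3 LPS_lo + IFNg cultures. These shared pool 6 except TNFa + IFNg replicate 8, an edge well in pool 8. Several of the genes added to IFNg by TNFa were also high with LPS_lo + IFNg. Nos2 was at 965 to 3866 CPM there (difference −1.90, SE 0.59, adjusted p = 0.208), Ccl5 at 17948 to 30247 CPM (−0.93, SE 0.39, adjusted p = 0.457) and Traf1 at 11.6 to 116 CPM (0.24, SE 0.46, adjusted p = 0.939). A difference that misses the threshold does not show that the mixes act alike.

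Where the mixes parted, monocyte chemokines and type I interferon genes were lower with TNFa + IFNg. Ccl2 was at 8.49 to 60.8 CPM (median 16.7) with TNFa + IFNg and at 78 to 293 CPM (median 191) with LPS_lo + IFNg, and Ccl7 at 0 to 10.5 against 9.45 to 109 CPM. They differed by −2.99 (SE 0.38, adjusted p = 0.000331) and −3.80 (SE 0.57, adjusted p = 0.00151). The groups did not overlap for Ccl2, which the naming rule required, and Ccl3 (−1.52) and Ccl4 (−1.75) were also lower. Of 23 type I interferon genes 11 were lower (list median −1.48): Ifit1, Ifit2, Ifit3, Ifit3b, Mx1, Oasl1, Rsad2, Usp18, Irf7, Cmpk2 and Bst2. Rsad2, the antiviral protein viperin, was at 12.6 to 92.7 CPM against 160 to 686 CPM (−2.98, SE 0.40, adjusted p = 0.000699). Ifit3 was at 227 to 902 CPM against 1322 to 2236 CPM (−2.01, SE 0.23, adjusted p = 0.000174). Neither gene overlapped between the mixes, which for Rsad2 was a condition of being named. Tspan3, a tetraspanin (20.1 to 90.2 against 244 to 385 CPM), Slamf9 (−2.12) and Ptgs2 (−1.73) were lower too.

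Higher with TNFa + IFNg were Clec5a, a myeloid activating lectin (20.7 to 66.2 against 1.2 to 10.6 CPM, 2.54, adjusted p = 0.00274), the complement protease C1ra (2.48, adjusted p = 0.00274), Parvg (1.82), Ppt2 (1.75) and Tlr2 (82.6 to 146 against 25.3 to 47.8 CPM, 1.44, adjusted p = 0.00133). Clec4e (2.27, adjusted p = 0.0121), Ubd (2.74, adjusted p = 0.0107), Cd1d1 (2.84, adjusted p = 0.00256) and Cxcl9 (1.37, adjusted p = 0.0275) were also higher. Cd74 was at 6.27 to 202 CPM (median 92.5) against 0 to 11.6 CPM (median 4.85), a difference of 4.18 (SE 0.71, adjusted p = 0.00444). H2-DMa was higher too (1.77), while H2-Aa (3.76, adjusted p = 0.106), H2-Ab1 (3.46) and H2-Eb1 (3.10) were not called. For H2-Aa the ranges, 8.43 to 1403 CPM against 0.723 to 92.5 CPM, overlapped through replicate 8 of the mix. Csf1r, the microglia marker, was 1.01 higher (1600 to 3753 against 956 to 1661 CPM). Cfb was at 49.5 to 1058 CPM against 96.6 to 141 CPM, a difference of 1.90 (adjusted p = 0.101). On plate 2, where the mixes were in different pools, the Cfb difference was 3.16 and called.

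**Figure D5:**
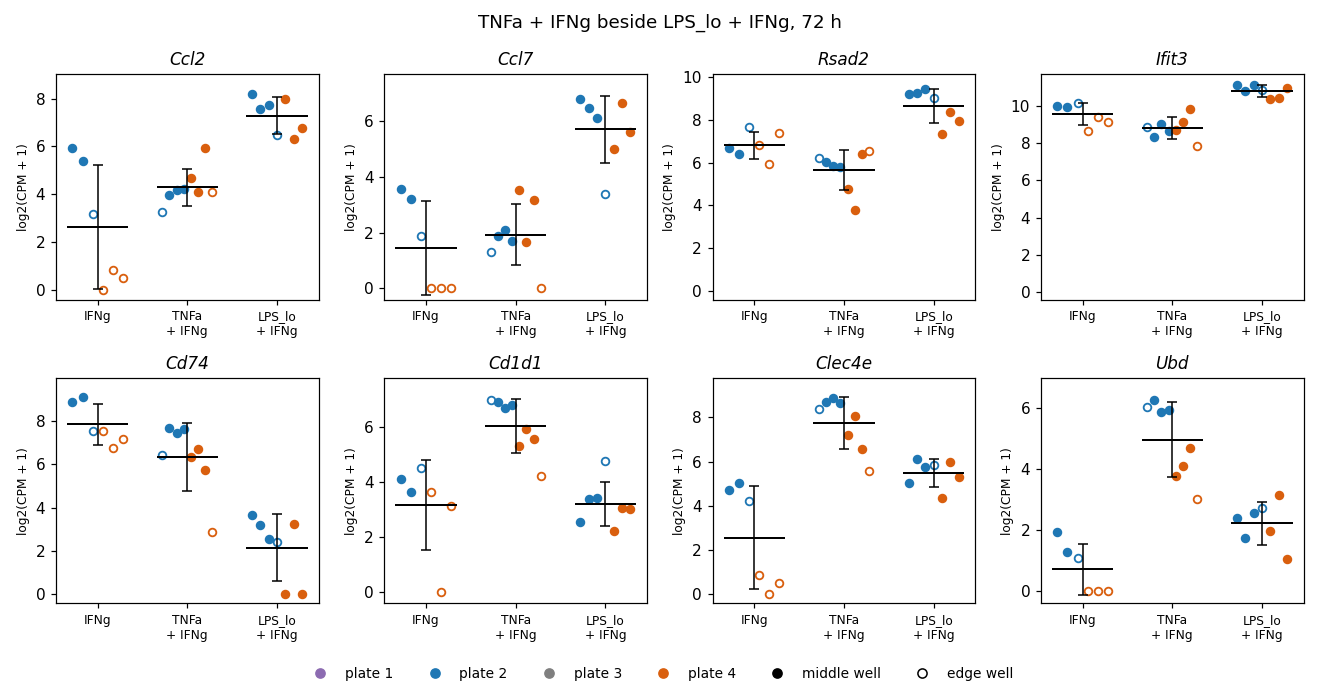
CPM on a log2(CPM + 1) scale of 8 genes with IFNg alone (6), TNFa + IFNg (8) and LPS_lo + IFNg (7). Points are cultures, coloured by plate, filled for middle and open for edge wells, with bars for mean ± SD on that scale. Ccl2, Ccl7, Rsad2 and Ifit3 lie lower with TNFa + IFNg than with LPS_lo + IFNg, and Cd74, Cd1d1, Clec4e and Ubd lie higher.

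TNFa alone was available in 3 shallow cultures of plate 4, all in middle wells, where no untreated culture lay in a middle well. Against untreated it differed in 2298 genes (21.6%), with 525 genes higher (4.93%) and 1773 lower (16.6%) around a median of −0.57, and in 605 genes with plate and well position in the model, so these counts rest on the layout. Against TNFa alone the mix differed in 2228 genes (20.9%) and was higher in 1611 (15.1%) and lower in 617 (5.79%). The effect of TNFa in the presence of IFNg differed from its effect in the absence of IFNg in 1680 genes (15.8%), 1350 upward and 330 downward, around a median of 0.80. For Nos2 the difference of the log2 effects was 8.43 (SE 1.31, adjusted p = 2.79e-05), for Cfb 7.40, for P2ry13 6.86, for C3 6.67 and for Clec4e 6.42. With TNFa alone, Nos2 and P2ry13 were listed at 0 in all 3 cultures, Cfb was at 0 to 2.54 CPM, C3 at 0 to 0.506 CPM and Clec4e at 0 to 3.88 CPM, so the sizes depend on the pseudocount. The downward end held Usp29, Vmn2r55, Cdca3, Hells and Gin1. Usp29 was at 84.3 to 118 CPM with TNFa alone and 0 to 32.2 CPM in the mix. TNFa cultures correlated with each other at a mean r of 0.585 to 0.592 over genes, against 0.742 to 0.859 in the mix, and predicted or clone names took 6.47% to 9.45% of their CPM against 3.45% to 5.31%. The part of these library differences in the result was not tested.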

How the data were processed

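The authors assigned 3′-end reads to Ensembl build 81 transcripts (the labels name mm8) using salmon 0.7.1, added them up by gene and divided by the reads mapped. The deposited values are CPM, called TPM in the paper, with no correction for length. Cultures under a depth limit or with few expressed genes were removed by the authors. The table lists 45581 genes for 784 cultures, and columns summed to 999112 to 999791. The 735 columns of other cultures were not used, nor was the table of microglia from mice. Depth was estimated from the step between low values, of which at least 73.35% per culture lay within 0.1 of a whole read, so tests for counts were not used.

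Values were taken as log2(CPM + 1). Genes above 5 CPM in at least 6 cultures were tested with limma 3.58.1 in R 4.3.3 (trend, Benjamini-Hochberg), in 1 fit of 39 cultures, 42 with TNFa alone added, and 15 for LPS_lo + IFNg. A gene was called at an adjusted p of 0.05 and an absolute log2 difference of 1. The fits recovered known changes when tested on simulated data with independent noise of equal spread in all groups. The simulation held no plate, well or pool effect, so it cannot show how the calls hold under these. Plate, well and pool came from the header of the table. Named genes were the 12 largest rises and 8 largest falls in each main comparison (5 and 5 in the others) with a mean of 20 CPM, no overlap and no predicted-gene name, besides called and example members of the lists and a set of cytokine, receptor and hub genes. Others, such as Tapbp, Icam1, Cd40, Cd274 and the further genes named against LPS_lo + IFNg, were chosen after their values were seen. Groups, lists and rules were chosen with earlier results of these data known. Some named results are left out here. Promoters were from RefSeq (GRCm38.p6). Other steps used Python 3.11.15, pandas 2.3.3, numpy 2.4.6, scipy 1.17.1 and matplotlib 3.10.9.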

Additional observations from a re-analysis of the deposited data

Results flagged for a closer look

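Samples were set against the rest of their group for 158 combinations of group and named gene, in groups of 6 to 8, and 23 stood apart by Dixon's test, which chance would give in about 1 of 20. Of the 23, 10 were in TNFa + IFNg replicate 8, the edge well of plate 4 in pool 8, and in 8 of these it was below the others. It held 404 CPM of Cxcl9, 118 CPM of Serpina3g, 8.65 CPM of Timd4, 49.5 CPM of Cfb, 1559 CPM of Ccl5, 9.29 CPM of Cmpk2, 2.16 CPM of Il1b and 273 CPM of Nfkbia, and it was the highest for Iigp1 (905 CPM) and Spp1 (71.5 CPM). TNFa + IFNg replicate 7 was lowest for Gadd45g, at 0.744 CPM.

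Among IFNg cultures, replicate 6 stood apart for Tgtp2 (152.5 CPM), S1pr1 (72.6 CPM) and Parvg (0 CPM), replicate 5 for Ppt2 (28.6 CPM) and Tspan3 (16.2 CPM), and replicate 4 for Cmpk2 (0 CPM) and Ifngr2 (14.3 CPM); all were shallow edge wells of plate 4. Among LPS_lo + IFNg cultures, replicate 5 stood apart for Spp1 (8.92 CPM) and Nfkb1 (58.1 CPM), replicate 7 for Ankle2 (53.2 CPM), and replicate 6 for Ppt2 (224 CPM) and Irf1 (771 CPM).

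The effect of TNFa differed with and without IFNg, by the contrast of effects in limma, for 1680 genes, and most for Nos2 (8.43 on the log2 scale), Cfb (7.405), P2ry13 (6.86), C3 (6.67) and Clec4e (6.42). The TNFa cultures carry the library differences given above, whose part was not tested.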

How the results depend on the processing

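No paired analysis was possible because the labels carry no replicate number, and numbers were given in accession order. Counts of genes called against IFNg alone moved from 220 to 480 with plate in the model, 308 with plate and well position, 136 with pool, 97 with only the 2 groups fitted, 132 with cultures of at least 2 M reads, 477 on plate 2 only, and 0 with the exact rank-sum test, whose smallest p is 0.000666 (102 genes reached it, 1038 genes had p under 0.05 before adjustment, and the smallest adjusted p was 0.0696). Leaving out 1 culture gave 136 to 338, with 136 without IFNg replicate 5, 338 without IFNg replicate 1 and 337 without IFNg replicate 2. Of the 220 calls, 220 were shared with the plate fit, 191 with plate and well position, 98 with pool and 128 with plate 2 only. Against untreated the count was 2151 on plate 2 only, and 1062 to 1306 without single cultures, around 1228. IFNg alone against untreated gave 1130 and 715 to 1390 without single cultures, 715 without IFNg replicate 5, and after quantile normalization 49.0% in place of 28.8% of its calls were higher. Against LPS_lo + IFNg the count of 65 became 107 with plate, 123 with plate and well position, 295 on plate 2 only, 355 with pool (44 of the 65 shared), 1 on plate 4 only, and 48 to 106 without single cultures, 106 without TNFa + IFNg replicate 8. TNFa alone against untreated gave 605 with plate and well position and 1529 to 2214 without single cultures (1529 without TNFa replicate 2), around 2298. TNFa + IFNg against TNFa alone gave 1689 to 2235, and the difference of effects 1424 to 1849. No named gene that was called reversed its direction, but over all calls 215 of 220 against IFNg alone and 1221 of 1228 against untreated had the same sign on plate 2. Calls against untreated, 590 higher and 638 lower, became 659 and 544 with median-of-ratios rescaling and 734 and 655 with quantile normalization. The remaining alternatives (pseudocount, filter, rescaling, trend) gave 164 to 251 genes against IFNg alone. The calls against IFNg alone that were lost most often without single cultures were Oasl1, Oas1g, Bcl3, Ikbke, Eno1, C1ra and Cybb. A fit of all 72 h conditions was not run, and a term for the source could not be fitted with 1 source ID. The causes were not tested. Depth limits low genes: in the shallowest culture, at 1.29 M reads, 1 CPM is about a single read.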
